A study of Mus musculus with 11 samples.

Results

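Accessible chromatin that was shared by the common lymphoid precursor (CLP) and the innate lymphoid cell precursor (ILCP) of the bone marrow, and had no peak in thymocytes, formed 2566 intervals of 71400 in the genome, or 3.59%. The intervals were chosen by the deposited peak calls. Peaks of all 9 ATAC-seq libraries were merged wherever they overlapped by 1 bp, and an interval was kept if the 2 ILCP libraries and no fewer than 2 of the 3 CLP libraries had a peak there, and none of the 4 thymic libraries did. ATAC-seq marks open chromatin by the insertion of a transposase. All cells came from C57BL/6 mice, which the methods give as 4 to 8 weeks old. CLP (3 libraries) were lineage-negative, IL-7Ra+ cells with intermediate cKit and Sca-1 and high Flt3. ILCP (2 libraries) were lineage-negative, IL-7Ra+, a4b7+ and positive for the eGFP of a Zbtb16-IRESGFPcre reporter, so that transcription of Zbtb16 itself, which encodes PLZF, was part of the gate. The thymic cells were CD4 single positive thymocytes (CD4SP, 2 libraries) and natural killer T cells (NKT, 2 libraries). The libraries are called biological replicates by the study. Whether animals were pooled is not given in the sources used here.

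CLP can still give rise to B, T, NK and innate lymphoid cells, and retain part of the open chromatin of earlier multipotent progenitors. ILCP derive from them and are committed to the innate lymphoid lineages. A regulatory element that is open in a progenitor may close as its gene is silenced in a later cell, or may persist after the gene has fallen silent. Runx factors, PU.1, E proteins and Tcf/Lef factors each bind a short DNA motif in such elements in lymphoid cells.

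The DNA at the centre of 9 of the intervals is shown because their positions or scores are described further on. These are the middle 200 bp, taken from the GRCm38 (mm10) reference, plus strand, with each match to the Runx motif (TGTGGT or TGCGGT, either strand) in capitals. Windows with a midpoint in an annotated exon were left out.
Upstream of Efna5, chr17:63012183-63012382: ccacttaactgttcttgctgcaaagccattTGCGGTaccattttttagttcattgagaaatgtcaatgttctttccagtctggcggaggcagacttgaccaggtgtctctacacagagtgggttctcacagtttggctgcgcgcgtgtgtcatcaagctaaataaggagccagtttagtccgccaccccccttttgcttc
Downstream of Nap1l3, chrX:121654735-121654934: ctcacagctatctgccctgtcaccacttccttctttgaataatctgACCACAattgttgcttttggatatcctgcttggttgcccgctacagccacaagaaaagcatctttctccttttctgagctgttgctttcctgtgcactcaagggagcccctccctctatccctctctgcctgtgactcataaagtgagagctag
Meis1 intron, 15089 bp after the start, chr11:18996814-18997013: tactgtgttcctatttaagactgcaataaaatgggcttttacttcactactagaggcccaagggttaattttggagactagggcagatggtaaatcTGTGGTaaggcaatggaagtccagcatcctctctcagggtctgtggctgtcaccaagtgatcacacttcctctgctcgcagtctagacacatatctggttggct
Meis1 intron, 62974 bp after the start, chr11:18948929-18949128: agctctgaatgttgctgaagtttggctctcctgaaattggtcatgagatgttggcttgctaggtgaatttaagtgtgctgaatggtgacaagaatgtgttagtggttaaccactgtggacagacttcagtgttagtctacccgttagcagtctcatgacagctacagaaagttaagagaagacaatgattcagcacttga
Mecom intron, chr3:30092053-30092252: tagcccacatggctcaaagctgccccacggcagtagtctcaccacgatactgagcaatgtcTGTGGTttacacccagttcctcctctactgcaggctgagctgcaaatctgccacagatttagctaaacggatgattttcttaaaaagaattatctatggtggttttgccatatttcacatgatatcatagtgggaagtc
Downstream of Cebpa, chr7:35124853-35125052: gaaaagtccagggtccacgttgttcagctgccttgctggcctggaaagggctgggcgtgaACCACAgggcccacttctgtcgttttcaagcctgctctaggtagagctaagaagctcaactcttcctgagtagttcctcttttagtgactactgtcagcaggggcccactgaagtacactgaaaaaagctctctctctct
Upstream of Tshz3, chr7:36690606-36690805: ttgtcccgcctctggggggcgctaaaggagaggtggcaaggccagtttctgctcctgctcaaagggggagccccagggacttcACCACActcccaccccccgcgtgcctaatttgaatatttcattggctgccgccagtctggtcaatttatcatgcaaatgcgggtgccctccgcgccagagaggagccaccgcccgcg
Upstream of Acpp, chr9:104339098-104339297: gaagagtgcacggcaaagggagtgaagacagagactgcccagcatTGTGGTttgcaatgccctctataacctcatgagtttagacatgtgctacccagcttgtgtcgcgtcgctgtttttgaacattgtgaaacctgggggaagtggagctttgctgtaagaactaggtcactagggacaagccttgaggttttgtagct
Ikzf1 intron, chr11:11751252-11751451: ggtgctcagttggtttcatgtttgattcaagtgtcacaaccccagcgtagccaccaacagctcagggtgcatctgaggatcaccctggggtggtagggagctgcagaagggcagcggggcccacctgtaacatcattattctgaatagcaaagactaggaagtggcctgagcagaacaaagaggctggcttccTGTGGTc
The window upstream of Efna5 is from one of the 10 highest-ranked intervals and holds the rarer TGCGGT form. The window downstream of Nap1l3 is intergenic, and its interval lies 742567 bp after the start of that gene, the nearest annotated start. It holds ACCACA within TGACCACA, the reverse complement of the longer form TGTGGTCA. The Meis1 window at 62974 bp holds no match.

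The libraries differed in the number of peaks. CLP replicate 1 had 19343, CLP replicates 2 and 3 had 41535 and 40136, the ILCP replicates 26328 and 25771, and the thymic libraries between 33648 and 38793. Read depth per library is unknown. CLP replicate 1 stood apart, with Spearman correlations of peak scores of 0.805 and 0.809 to the other CLP libraries, which correlated with each other at 0.977. The ILCP libraries correlated at 0.906, and CLP with ILCP libraries at 0.67 to 0.705 (over the intervals with a peak in all 5, which are not independent). Of 5 CLP marker genes (Flt3, Kit, Il7r, Dntt, Ly6d), 4, 5 and 4 had a peak at the start site in the CLP libraries, 4 and 2 in ILCP replicates 1 and 2, and 2 to 3 in the thymic ones. Of 5 CD4SP markers (Cd3e, Cd4, Cd5, Bcl11b, Trac), 4 to 5 were open in the thymic libraries, 1 to 2 in CLP and 2 to 3 in ILCP. The start of Zbtb16 was open in both ILCP and both NKT libraries, in CLP replicate 2 and in neither CD4SP library. Of 5 ILCP markers (Zbtb16, Tcf7, Tox, Id2, Gata3), 4 were open in each ILCP library, 3 to 4 in CLP and 4 in the thymic libraries, and Tcf7 had a start-site peak in the CD4SP libraries alone. Of 4 myeloid markers, Mpo was open in CLP replicate 2 and Csf1r in CLP replicate 3, and Elane and Lyz2 in none. Of 3 B cell markers 1 to 2 were open in every library, and of 3 erythroid markers 1 to 3, with Gata1 in no bone marrow library. The part of other cell types in the results was not tested.

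The intervals kept were a minority of the chromatin that CLP and ILCP shared. Of 15806 intervals that met the bone marrow part of the rule, 16.2% had no thymic peak, and 11169 were open in all 4 thymic libraries. A further 10126 intervals were open in at least 2 CLP libraries and in neither ILCP nor thymic library (CLP only), 2611 in both ILCP libraries alone (ILCP only), and 5025 in all 4 thymic libraries alone. Of the 2566 intervals, 1460 had a peak in all 3 CLP libraries and 1106 in 2, of which 1099 lacked CLP replicate 1. Just outside the rule lay 258 intervals with peaks in the ILCP pair and 1 CLP library, 1288 with 1 ILCP library and at least 2 CLP libraries, and 572 that met the bone marrow part of the rule and had a peak in a single thymic library. That single peak was in NKT replicate 2 in 301 of the 572, in NKT replicate 1 in 159 and in each CD4SP library in 56, and its median rank was at percentile 14.1 of its own library. In ILCP, the median percentile was 37.9 in the intervals with 1 CLP peak, 40.8 in those with 2 and 52.3 in those with 3. Most of the intervals were far from thymic peaks, with a median distance of 22868 bp, 66.6% at more than 10 kb and 54 within 500 bp. These values follow from the rule and were not tested.

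Scores describe how strong the peaks of these intervals were. The median score was 262, 541 and 514 in the CLP replicates and 245 and 243 in the ILCP replicates, on the scale of the deposited peak score, which starts at about 120 and has most of its highest values at 3100. The type of score is not stated, and a score that measures the significance of a peak would also depend on read depth, so differences are given as differences of score and not of accessibility. Because the scale differed between libraries, peaks were also ranked within each. Among all peaks of a library, the median percentile was 48.6 in CLP replicate 1, 65.3 and 64.2 in CLP replicates 2 and 3, and 48.8 and 49.1 in ILCP. Among intervals with a peak in all 5 bone marrow libraries, the 1460 of the set ranked lower, at 33.7, 38.6 and 37.5 in CLP (36.6 ± 2.58, SD, n = 3) and 29.9 and 32.2 in ILCP (31.1 ± 1.6, SD, n = 2). All CLP values lay above both ILCP values, by a mean of 5.55 percentile points, and an exact permutation test of the library labels, two-sided, gave p = 0.2, where the smallest p the design allows is 0.1. The median width of the set's peaks was 856, 1165 and 1154 bp in CLP and 809 and 795.5 bp in ILCP, a difference of -256 bp (exact permutation p = 0.2). Relative to the median of all peaks in the same library the widths differed by -18, 130 and 121 bp in CLP and by -11 and -17.5 bp in ILCP (exact permutation p = 0.4), and CLP replicate 1 then lay below both ILCP values.

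Most intervals lay away from gene starts. Their midpoints fell within 1 kb of an annotated start in 419 cases, or 16.3% (Wilson 95% interval 14.9 to 17.8), against 21.2% of all intervals. With equal numbers of peaks per library the shares were 25.2% and 30.2%, and with the higher-scoring 50% of peaks 25% and 33.6%. In the full lists the share was 9.34% for the CLP only intervals, 3.98% for the ILCP only intervals, 9.23% for the thymus only intervals and 65.2% for the 9464 open in all 9 libraries. Introns held 43.8%, exons 11.9% and intergenic DNA 44.3%. The median distance to a start was 19766 bp, against 11865 bp over all intervals, and 19.0% were more than 100 kb away, against 11.8%. The Wilson intervals here and below cover counting error alone, and intervals called in the same libraries are not independent, so no test was made. When intervals within 10 kb of each other were joined, 2321 stood alone and 107 formed pairs. The groups of 4 or 5 lay at Tshz3 (5 intervals over 30683 bp), Meis1 (4 over 31679 bp) and Rarb (4 over 22907 bp). Tshz3 encodes a zinc-finger homeobox factor, Meis1 a homeobox partner of Hox proteins in haematopoietic progenitors, and Rarb a retinoic acid receptor.

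Genes were assigned intervals within the gene or 20 kb on either side. Of 21951 protein-coding genes, 1880 had at least 1 of the intervals and 92 at least 3. Across all protein-coding genes, 3.32% of nearby intervals belonged to the set, and this is the background for the gene lists. Transcription factors of multipotent progenitors had the largest share of the 12 lists with a flank of 20 kb, with 20 of 250 intervals (8%, Wilson 95% interval 5.24 to 12.0). In that list 7 of the 20 lay at Meis1, 6 at Mecom, 2 at Bcl11a, 2 at Mef2c, and 1 each at Tal1, Hlf and Gfi1b, while the remaining 15 of its 22 genes had none. Meis1 held 7 of its 20 intervals and Mecom 6 of its 28, while 5 and 11 of them were CLP only. The list was also rich in CLP only intervals, with 61 of its 250, against 10126 of all 71400 intervals. Its high share was therefore not particular to the set. Progenitor surface and cytokine receptors had 5 of 149 (3.36%), at Flt3, Cd34 and Csf1r with 1 each and at Il1rap with 2, and none at Kit or Il7r. B-lineage genes had 3 of 92 (3.26%), at Ebf1, Blk and Bank1, and myeloid and dendritic genes 3 of 94 (3.19%), at Cebpa, Siglech and Tyrobp. Innate sensing genes had 3 of 82 (3.66%), at Tlr9, Nfkb1 and Casp1. The lists of innate lymphoid precursor genes, with 3 of 237 (1.27%, interval 0.431 to 3.65), and of T lineage genes, with 1 of 162 (0.617%, interval 0.109 to 3.41), were the lowest of the lists with over 100 intervals. The first list included intervals at Zbtb16 and Il18r1, and the T lineage interval, near Cd6, overlapped the start of its neighbour Slc15a3. The T lineage count was 0 when the flank was 5 kb. One interval was shared by Rag1 and Rag2 (1 of 20, 5%, or 1 of 10 with a flank of 5 kb, where this list had the largest share), and there was 1 each in the lists of erythroid genes (1 of 34, Ank1), the Ikaros family (1 of 57, Ikzf1) and the E proteins with their Id inhibitors (1 of 46, Id4). The Hox A cluster had none of 9, with an upper bound of 29.9%.

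**Figure D1:**
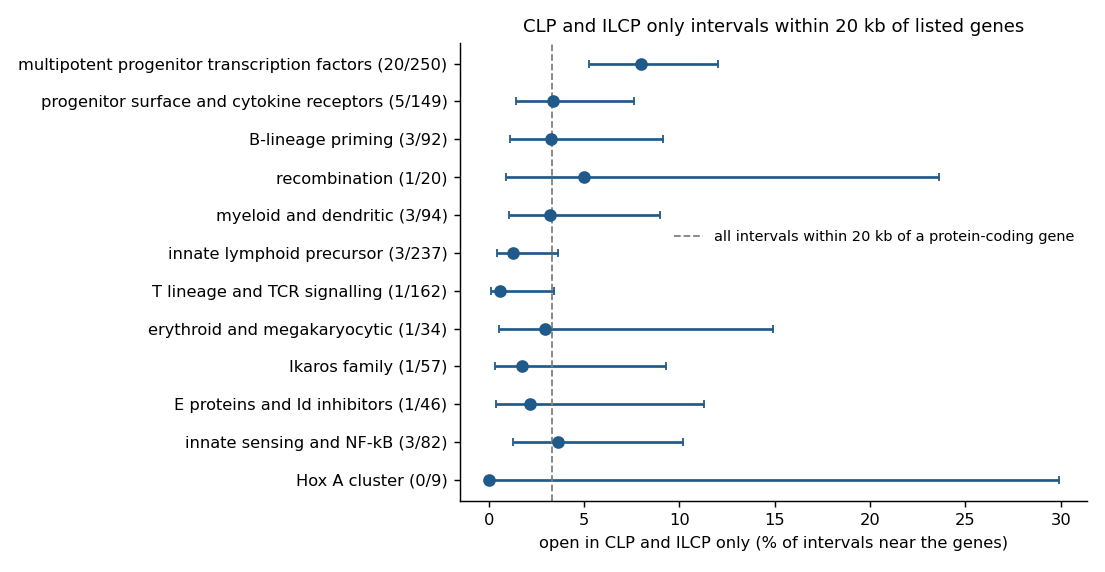
Share of intervals near the genes of each list that were open in CLP and ILCP only (x axis, percent; points, with Wilson 95% intervals as bars; counts in parentheses). The dashed line is the share near all protein-coding genes, 3.32%, and the progenitor transcription factors, at 8%, are the list whose bar lies wholly above it.

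Scores were compared between ILCP and CLP over the 12171 intervals with a peak in all 5 bone marrow libraries, 1460 of them in the set. The log2 scores were quantile-normalised and fitted with limma, and the adjusted p was limma's with Benjamini-Hochberg correction over all 12171. The score was higher in ILCP in 160 of the 1460 (11.0%), against 6.61% of all intervals tested, and higher in CLP in 241 (16.5%), against 6.39%. The median difference, ILCP minus CLP, was -0.19 on the log2 scale, and 0.04 over all tested. CLP replicate 1, which lacked a peak in 1099 of the intervals, decided how many could be tested. Without it, 2559 were tested among 15765, 583 were higher in ILCP (22.8%, against 17.2% of all) and 543 higher in CLP (21.2%, against 15.3%), and the median was -0.03 against 0.02. Without ILCP replicate 1 or 2, limma called none in either direction, with a single ILCP library assumed to vary like the CLP libraries. At an unadjusted p under 0.05, 244 and 228 were higher in ILCP (16.7% and 15.6%, against 11.1% and 10.6% of all tested) and 310 and 300 higher in CLP (21.2% and 20.5%, against 11.6% and 11% of all tested). Refitting the same 12171 intervals without CLP replicate 1 gave 18.3% higher in ILCP, against 18.7% of all, and 27.7% higher in CLP, against 15.5%. Over all 12171, 2275 were then higher in ILCP and 1883 in CLP, against 804 and 778 with all 5 libraries. Calls thus rose without more intervals being tested. CLP replicates 2 and 3 correlated at 0.977, and with CLP replicate 1 at 0.805 and 0.809. Standard errors and adjusted p without CLP replicate 1, here and below, omit its difference from the other CLP libraries. Leaving out CLP replicate 2 gave 92 higher in ILCP (6.3%, against 3% of all tested) and 139 in CLP (9.51%, against 3.27%). Leaving out CLP replicate 3 gave 99 (6.75%, against 3.07%) and 152 (10.4%, against 3.31%). The shares differed by position. Away from starts, 12% of the set were higher in ILCP, against 12.2% of all tested, and 18.4% higher in CLP, against 10.8%. At starts, 6% were higher in ILCP and 7.2% in CLP, against 2.11% and 2.85%. Without CLP replicate 1, the 419 intervals at gene starts had a median of -0.43, with 48 higher in ILCP (11.5%, against 9.04% of all at starts) and 111 higher in CLP (26.5%, against 15%). The 2140 away from starts had a median of 0.06, with 535 higher in ILCP (25%, against 24.8%) and 432 in CLP (20.2%, against 15.6%). Over all tested intervals those medians were -0.06 and 0.16. With all 5 libraries the medians of the set were -0.25 and -0.17.

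**Figure D2:**
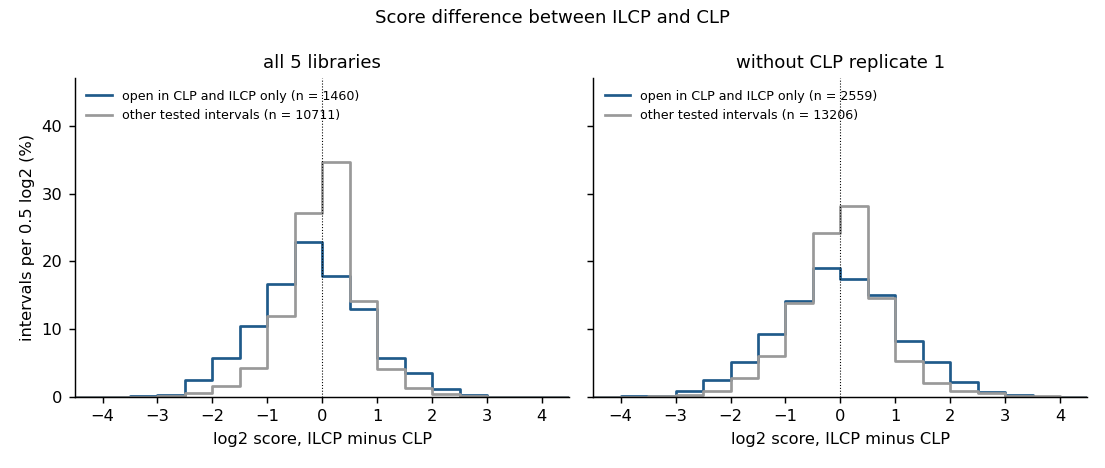
Distribution of the log2 score difference, ILCP minus CLP (x axis), as percent of intervals per 0.5 log2 (y axis), for the intervals open in CLP and ILCP only and for the other intervals tested, with all 5 libraries (left) and without CLP replicate 1 (right). The set is broader than the rest in both panels, with medians of -0.19 (left) and -0.03 (right).

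The progenitor genes carried intervals that differed in both directions. At Meis1, the interval over the start had scores of 608, 3100 and 3100 in the CLP replicates and 468 and 492 in the ILCP replicates. Raw scores ran higher in CLP replicates 2 and 3 in general, so that after normalisation its difference was -1.10 (SE 0.37, limma adjusted p = 0.0988), and -1.46 without CLP replicate 1 (SE 0.14, adjusted p = 0.00651), where both CLP scores are at the 3100 ceiling, so that neither the size nor the spread is measured beyond it. An intronic interval 86995 bp after the start had 652, 1807 and 1486 in CLP and 323 and 344 in ILCP, and was higher in CLP (-0.91, SE 0.20, limma adjusted p = 0.0334). The interval at 62974 bp had 184, 499 and 529 in CLP and 569 and 621 in ILCP, above every CLP library, and was higher in ILCP (1.62, SE 0.19, adjusted p = 0.00592). The one at 15089 bp, with 241, 643 and 620 in CLP and 357 and 333 in ILCP, did not pass (0.48, SE 0.19, adjusted p = 0.14). The other 3 had no peak in CLP replicate 1. Of these, the one 8032 bp before the start was higher in CLP in the 4-library fit (-1.34, SE 0.16, adjusted p = 0.00961), and those at 3709 and 126184 bp did not pass.

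Mecom encodes Evi1, a zinc-finger factor of haematopoietic stem cells. Its widest interval spanned an annotated start and had 786, 3100 and 3100 in CLP and 736 and 479 in ILCP (-0.91, SE 0.32, adjusted p = 0.107, or -1.15 and 0.0285 without CLP replicate 1). The interval 5142 bp before an annotated start had 135, 1429 and 1600 in CLP and 135 and 185 in ILCP, and CLP replicate 1 was at the level of ILCP there. An interval over an exon, 1978 bp before another annotated start, had 231, 330 and 239 in CLP and 319 and 305 in ILCP, and was higher in ILCP without CLP replicate 1 (1.15, SE 0.17, adjusted p = 0.0133). The intronic interval whose sequence is shown had 399, 1417 and 1357 in CLP and 392 and 465 in ILCP and did not pass (-0.13, SE 0.22, adjusted p = 0.729). None of the 6 Mecom intervals passed the threshold with all 5 libraries, where 4 could be tested. Without CLP replicate 1, 3 of the 6 were higher in CLP, against 15.3% of all intervals tested, and 1 in ILCP, against 17.2%.

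**Figure D3:**
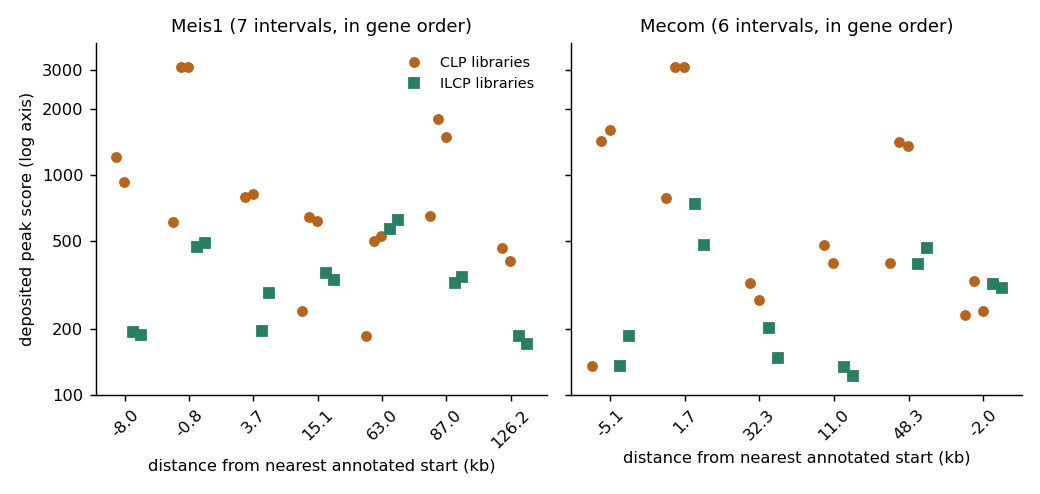
Deposited peak scores (y axis, log scale) of the 7 intervals at Meis1 and the 6 at Mecom, in order along each gene from its 5′ end, with the signed distance to the nearest annotated start on the x axis (kb). Each circle is a CLP library and each square an ILCP library, and an interval with 2 circles had no peak in CLP replicate 1. At Meis1 the ILCP squares lie above all the CLP circles at 62974 bp alone.

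The other factors of the progenitor list had 7 intervals. Bcl11a, a zinc-finger repressor needed for lymphoid development, had an interval 43045 bp after a start with 628, 1239 and 1252 in CLP and 126 and 131 in ILCP, close to the lowest score that was deposited, and higher in CLP (-2.29, SE 0.24, limma adjusted p = 0.00466). The remaining 6, at Bcl11a, Mef2c, Tal1, Hlf and Gfi1b, had scores of 136 to 985 in ILCP and in CLP replicates 2 and 3. None passed the threshold with all 5 libraries, where 1 of the 6 could be tested. Without CLP replicate 1, the interval in the Bcl11a intron (-1.02, SE 0.16, adjusted p = 0.0159) and the one at the Mef2c start (-1.03, SE 0.16, adjusted p = 0.0152) were higher in CLP, and the other 4 did not pass. Of the 20 intervals of the list, 10 could be tested with all 5 libraries, with 1 higher in ILCP and 2 in CLP and a median of -0.62. Without CLP replicate 1 all 20 were tested, with 2 higher in ILCP and 9 in CLP and a median of -0.48, against 17.2% and 15.3% of all intervals.

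Receptors that mark progenitors followed. Flt3, the receptor whose ligand sustains CLP, had its interval at the start, with 875, 3136 and 2777 in CLP and 527 and 437 in ILCP (-1.35, SE 0.38, limma adjusted p = 0.0612, or -1.56 and 0.03 without CLP replicate 1). Cd34, a surface sialomucin of progenitors, had 561, 2432 and 2440 in CLP and 404 and 375 in ILCP at an interval that spans its start (-0.99, SE 0.26, adjusted p = 0.0524, or -1.25 and 0.00791). Both were lower in every ILCP library than in every CLP library. Csf1r, the receptor for macrophage colony-stimulating factor, had an interval 9177 bp before its start with 715, 1564 and 1461 in CLP and 758 and 562 in ILCP, and the difference of 0.14 (SE 0.24, adjusted p = 0.735) did not pass. Il1rap, an accessory chain of the IL-1 receptor family, had 811, 1724 and 1701 in CLP and 269 and 165 in ILCP at one of its intervals, higher in CLP (-1.80, SE 0.29, adjusted p = 0.0128).

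In the myeloid list, the interval 5649 bp after the start of Cebpa, whose product drives granulocyte and macrophage fates, had 209, 576 and 553 in CLP and 131 and 136 in ILCP and was higher in CLP (-0.96, SE 0.19, limma adjusted p = 0.0224). The interval near Siglech, a receptor of plasmacytoid dendritic cells, lies 9536 bp before the start of Tubgcp5 and had 1847, 3111 and 2935 in CLP and 473 and 328 in ILCP (-1.92, SE 0.31, adjusted p = 0.013). The third interval of the list, near Tyrobp, had no peak in CLP replicate 1, 136 and 173 in the other CLP libraries and 208 and 162 in ILCP (0.81, SE 0.22, adjusted p = 0.0533 in the 4-library fit). Siglech and Bst2, as markers of plasmacytoid dendritic cells, both had a start-site peak in all 3 CLP libraries. Both also had one in ILCP replicate 1, where the Siglech interval scored 473. Neither had one in ILCP replicate 2, which also lacked start-site peaks at Il7r and Dntt. Bst2 was open in the 4 thymic libraries too, and the part of such cells in the difference was not tested. The interval near Rag1 and Rag2, which encode the recombinase of antigen receptor genes, was centred 453 bp before the start of Rag2, with no peak in CLP replicate 1, 1560 and 1532 in the other CLP libraries and 133 and 146 in ILCP (-2.52, SE 0.16, adjusted p = 0.00498 in the 4-library fit). Fewer cells with an open site and less opening in each cell cannot be told apart in these bulk samples.

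Intervals with a higher normalised score in ILCP included sites at known lymphoid regulators. The Zbtb16 interval lies in an intron 21173 bp after the start (chr9:48814168-48815376). It contains the intronic enhancer that the paper deleted in mice, with loss of PLZF in ILCP and impaired PLZF in early NKT thymocytes. The paper also reports Runx1 binding at this enhancer in NKT thymocytes. The lack of a called thymic peak therefore does not make this interval specific to bone marrow. It had 237 and 192 in CLP replicates 2 and 3, no peak in CLP replicate 1, and 497 and 523 in ILCP, a difference of 2.24 (SE 0.15, adjusted p = 0.00498 in the 4-library fit), and ILCP cells had been sorted on the activity of this gene. The Ikzf1 interval, in an intron of the gene for Ikaros, had 303, 634 and 637 in CLP and 563 and 599 in ILCP, so the raw scores overlapped and the normalised score was higher in ILCP (1.17, SE 0.22, limma adjusted p = 0.0204). Near Il18r1, a receptor chain of innate lymphocytes, the interval lies 13515 bp before the start of Il18rap and had 145 and 168 in CLP replicates 1 and 2, no peak in CLP replicate 3, and 314 and 353 in ILCP, and could not be fitted.

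The 5 largest differences toward ILCP among all 1460 lay at Tmem132d, March1, Yipf5, Adgrl2 and Acpp, between 2.44 and 2.71 on the log2 scale. The Tmem132d interval, 138921 bp after the start, had 197, 538 and 430 in CLP and 1321 and 1433 in ILCP (2.71, SE 0.20, limma adjusted p = 0.00423). The interval at March1, a ubiquitin ligase that acts on MHC class II, had 150, 335 and 267 in CLP and 833 and 954 in ILCP (2.71, SE 0.21, adjusted p = 0.00423). The interval before Acpp, the gene for prostatic acid phosphatase, had 154, 548 and 561 in CLP and 1192 and 923 in ILCP (2.44, SE 0.24, adjusted p = 0.00451), and its centre is among the sequences shown. In each of these 5, both ILCP libraries scored higher than all 3 CLP libraries.

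The 5 largest differences toward CLP lay at Gramd1b, Foxa1, Sox17, Synpr and Clcn1, between -3.02 and -2.57. The interval centred 754 bp before the start of Foxa1, a forkhead factor of endoderm-derived tissues, had 376, 3100 and 3100 in CLP and 136 and 135 in ILCP (-2.96, SE 0.54, limma adjusted p = 0.0184). The interval at Sox17, an HMG-box factor of endoderm and fetal stem cells, had 825, 3100 and 3100 in CLP and 202 and 143 in ILCP (-2.92, SE 0.30, adjusted p = 0.00453). The Synpr interval had 1714, 3100 and 3100 in CLP and 187 and 244 in ILCP (-2.78, SE 0.23, adjusted p = 0.00423). Scores of 3100 or more occurred in 51 of the intervals in CLP replicate 2, in 36 in CLP replicate 3 and in none in the other 3 bone marrow libraries, and every difference given here for an interval with such a CLP score rests on the ceiling. Among those named with a difference, these are the Meis1 and Mecom starts, Flt3, the interval near Siglech, Gramd1b, Foxa1, Sox17, Synpr, Efna5 and Ncam2.

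The highest-ranked intervals of all were not at the listed genes. The 10 with the highest mean percentile, from 95 to 96.8, lay nearest to Ncam2, Sstr4, Efna5, 5730480H06Rik, Macrod2, Atp6ap1l, Lmcd1, Nap1l3 (2 intervals) and Itgb1bp1. The Efna5 interval, 130965 bp before the start of this ephrin gene, had 1447, 3100 and 3006 in CLP and 1320 and 1139 in ILCP (-0.08, SE 0.20, limma adjusted p = 0.816). The one at Ncam2, a neural cell adhesion gene, had 1437, 3100 and 2997 in CLP and 1398 and 1349 in ILCP (0.02, SE 0.20, adjusted p = 0.954). The Nap1l3 interval whose sequence is shown had 1116, 2600 and 2297 in CLP and 1336 and 1720 in ILCP (0.47, SE 0.22, adjusted p = 0.205). None of the 10 passed the threshold with all 5 libraries, and the one nearest to Atp6ap1l was higher in ILCP without CLP replicate 1 (0.92, SE 0.16, adjusted p = 0.0191).

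The number of intervals per gene reached 8. Macrod2 had 8 of its 26 intervals in the set, over a gene of 1997658 bp, followed by Meis1 with 7, Tshz3, Ank2, Mecom and Nrxn3 with 6, and Slc8a1, Mcc and Lrmda with 5. A total of 30 genes had at least 4, and of those tied at 4 the shortest, Ptger3, Mb21d2, Slc25a26, Lifr and Mapk4, completed the 15 genes considered. By share, Tshz3 led these 15, with 6 of its 7 intervals, followed by Mb21d2 with 4 of 6. At Tshz3 the interval centred 1073 bp before the start had 123, 2682 and 2863 in CLP and 357 and 145 in ILCP, with a spread within each group that left the difference at -1.15 (SE 1.04, limma adjusted p = 0.497), or -2.42 and 0.0379 without CLP replicate 1. The Tshz3 interval whose sequence is shown had no peak in CLP replicate 1, 300.1 and 298.5 in the other CLP libraries and 230.6 and 248.9 in ILCP, and its normalised score was higher in ILCP (0.62, SE 0.15, adjusted p = 0.0424 in the 4-library fit). Ptger3, a receptor for prostaglandin E2, held intervals of opposite direction within its introns. One at 14597 bp had 127, 655 and 480 in CLP and 721 and 896 in ILCP (2.23, SE 0.35, adjusted p = 0.0117), and one at 60812 bp had 800, 2568 and 2589 in CLP and 467 and 476 in ILCP (-0.91, SE 0.20, adjusted p = 0.0301). Of the 79 intervals at these 15 genes, 49 were tested with all 5 libraries, with 4 higher in ILCP and 9 higher in CLP, against 6.61% and 6.39% of all intervals. Of the 78 tested without CLP replicate 1, 18 were higher in ILCP and 23 higher in CLP, against 17.2% and 15.3%.

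Sequence was not used to choose the intervals. Among the 26 motifs searched in the central 200 bp on both strands, the Runx motif (TGTGGT or TGCGGT) was the most frequent in the intervals. It was present in 1082 of the 2566 (42.2%, Wilson 95% interval 40.3 to 44.1), against 28.5% of all 71400 intervals. Away from starts it was present in 990 of 2147 (46.1%, interval 44.0 to 48.2), against 30.9% of the 54081 other intervals away from starts. It was present in 59.0% of the ILCP only intervals, 31.3% of the CLP only intervals, 29.7% of those open in all 9 libraries and 24.9% of the thymus only intervals. At gene starts the share was 22.0% (92 of 419, interval 18.3 to 26.2), against 17.7% of all intervals at starts. At least 2 matches were present in 14.0% of the 2147, against 6.15% of all intervals away from starts. The median GC content of the 2147 was 48.5%, against 48% of all intervals away from starts. With GC content below 45%, from 45% to below 51%, and from 51%, the shares were 41.3%, 52.0% and 44.3% in the set, against 31.8%, 32.4% and 28.5% in the rest. A match is a description of the sequence and shows no binding.

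**Figure D4:**
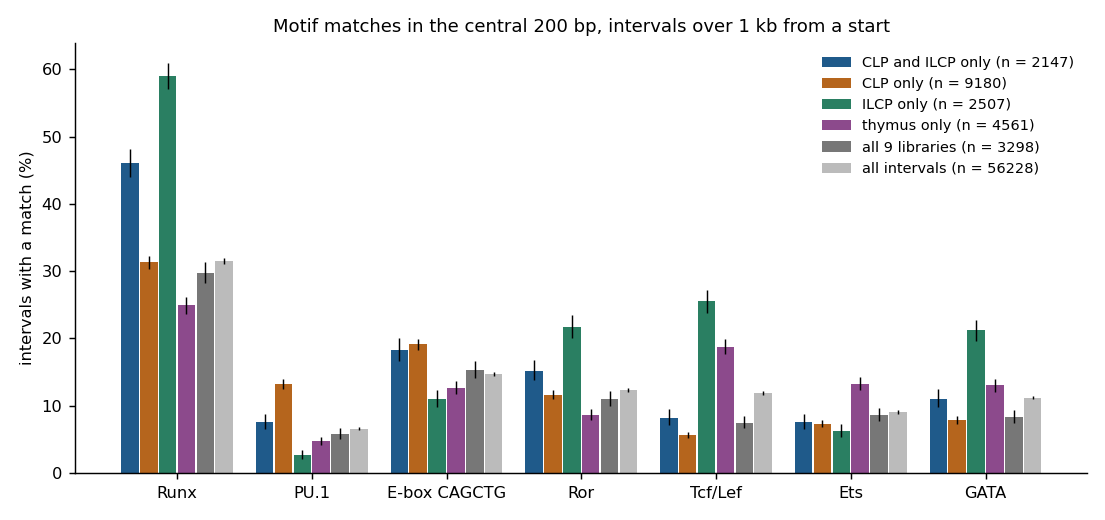
Percent of intervals away from starts with at least 1 match (y axis) to each of 7 motifs (x axis), for 6 classes of intervals (bars, with Wilson 95% intervals). For the Runx motif the intervals open in CLP and ILCP only, at 46.1%, lie between the ILCP only class, at 59.0%, and the CLP only class, at 31.3%.

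Runx matches lay at the centre of the intervals. Away from starts there were 17.9 and 18.4 matches per 100 intervals in the 50 bp on either side of the midpoint, and 3.96 and 5.03 in the outermost 50 bp, at 450 to 500 bp on either side. The corresponding central values were 24.8 and 23.8 in the ILCP only intervals, 10.8 and 10.9 in the CLP only intervals and 7.34 and 8.46 in the thymus only intervals. The share with a match varied little across 4 equal groups of the intervals ordered from the lowest mean percentile to the highest, at 49.3%, 45.8%, 43.8% and 45.4%, with overlapping Wilson intervals. The Wilson intervals of the intervals higher in ILCP and of those higher in CLP did not overlap. Of intervals away from starts that were higher in ILCP, 54.5% had a match (79 of 145, interval 46.4 to 62.4), and of those higher in CLP 36.3% (81 of 223, interval 30.3 to 42.8). Of the 842 past neither threshold, 49.5% had one (interval 46.2 to 52.9). Without CLP replicate 1 the shares were 49.3% (264 of 535) and 37.0% (160 of 432), with intervals of 45.1 to 53.6 and 32.6 to 41.7, against 47.8% (interval 45 to 50.7) of those past neither threshold. The shares of intervals higher in ILCP and of those past neither threshold had overlapping intervals in both fits. Shares by direction, here and for the motifs below, were not computed for the other intervals tested. Whether the contrast is particular to the set was not tested, and the ILCP only and CLP only intervals differed in the same direction.

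**Figure D5:**
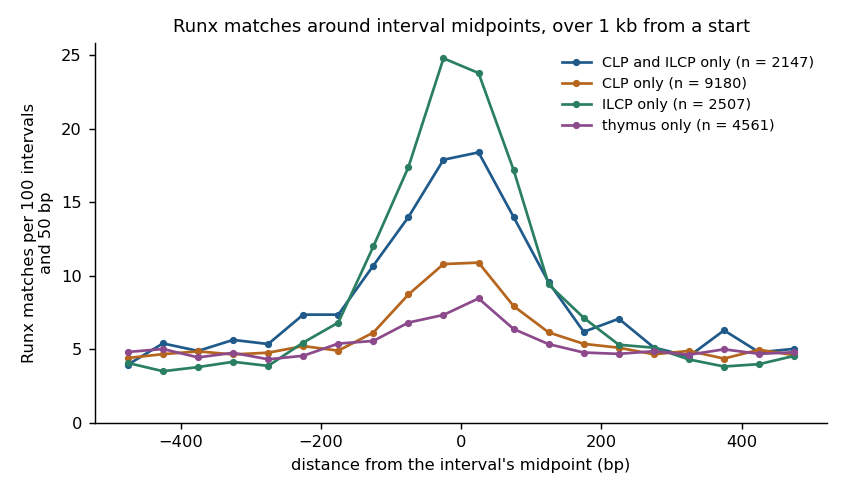
Runx matches per 100 intervals and 50 bp (y axis) by distance from the interval's midpoint (x axis, bp), in 4 classes of intervals away from starts (lines). The intervals open in CLP and ILCP only reach 18.4 next to the midpoint, below the ILCP only class and above the other classes, and all 4 classes lie between 3.96 and 5.03 at the outer edges.

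Among intervals that met the bone marrow part of the rule, the Runx share was lower with more thymic libraries, although neighbouring values with 1 to 3 libraries differed by less than their intervals. Away from starts it was 46.1% with none (990 of 2147), 38.1% with 1 (169 of 444, interval 33.7 to 42.7), 36.3% with 2 (232 of 639), 36.2% with 3 (190 of 525) and 29.4% with 4 (1305 of 4445, interval 28.0 to 30.7). The longer form TGTGGTCA, which was chosen after the data were seen and is contained in the TGTGGT matches, was present in 151 of the 2147 (7.03%, interval 6.03 to 8.19) and in 2.83% of all intervals away from starts. It was present in 1.93% of those with peaks in all 4 thymic libraries. The rarer TGCGGT was present in 4.61% against 3.57%, so that the difference in the Runx share lay in TGTGGT, at 43.8% against 28.9%.

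Motifs of the other lymphoid factors differed from their background by fewer percentage points. A longer pattern matches less often, so the rank of the Runx motif and differences in percentage points depend partly on the letters chosen. Away from starts, the E-box CAGCTG of E proteins was present in 18.3% of the intervals, against 14.7% of all, and in 19.1% of the CLP only intervals. The Ror motif AGGTCA was present in 15.2% against 12.3%, with 21.7% in the ILCP only intervals. The PU.1 motif GAGGAAGT was present in 7.55% (162 of 2147) against 6.56%, between the CLP only intervals at 13.2% and the ILCP only intervals at 2.63%. The Tcf/Lef motif (CTTTGAT or CTTTGAA) was less frequent than over all intervals, at 8.20% against 11.9%, and lay far below the 25.5% of the ILCP only intervals and the 18.7% of the thymus only intervals. The Ets motif (CCGGAAGT or ACAGGAAG) was present in 7.50% against 9.06%, with 13.2% in the thymus only intervals, and the GATA motif AGATAA in 11.0% against 11.2%. The Irf motif GAAANNGAA was present in 8.99% against 8.84%. It was present in 3 of the 145 intervals away from starts that were higher in ILCP (2.07%, interval 0.706 to 5.91) and in 25 of the 223 that were higher in CLP (11.2%, interval 7.71 to 16.0). Without CLP replicate 1 those shares were 5.98% and 9.03%, and their intervals overlapped. The Tcf/Lef shares in the same comparison were 9.66% (interval 5.84 to 15.6) and 4.93% (interval 2.78 to 8.62), which overlapped, or 11.8% (interval 9.31 to 14.8) and 5.32% (interval 3.57 to 7.86) without CLP replicate 1.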

How the data were processed

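ATAC-seq peaks of 9 libraries were used. The authors aligned 50 bp reads with bowtie, allowing 2 mismatches, to mm10, and ran MACS on each library to call its peaks. The submitters' processing notes also name Picard and HOMER. The deposited lists give each peak's position and a score from MACS. The type of this score is not given in the sources used here, and it was treated as a score on no fixed scale. The Runx1 ChIP-seq library and its input (2 libraries) were not analysed here.

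Peaks were merged, and the highest score per interval and library was kept. Start sites, exons and genes were from GENCODE M21 and sequence from GRCm38. Scores were compared with limma 3.58.1 (R 4.3.3) on quantile-normalised log2 values, with an adjusted p threshold of 0.05. Medians per library were compared by exact permutation tests, and shares were given Wilson 95% intervals, which cover counting error alone. The fit was tested on simulated data first. The intervals, gene lists and motifs were chosen with earlier results of these data known. Text names the listed genes with at least 1 interval, the 15 genes with most intervals, the 10 intervals of highest mean percentile, and the 5 largest differences in each direction past the threshold. Some genes that meet this rule are not reported here. Tcf7 and other marker genes were named to check the cell types. Sequences were drawn from the named intervals with midpoints outside exons. p-values measure the spread between the libraries in each fit. In fits without CLP replicate 1 that spread omits its difference from the other CLP libraries. Nothing in the labels pairs the CLP and ILCP libraries by number, and no replicate block was used in the fits reported (correlations of deviations were between -0.0345 and 0.0345, and with 2 ILCP libraries mirror each other). Alternatives changed the rule, the score scaling, the libraries and the search windows.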

Additional observations from a re-analysis of the deposited data

How the results depend on the processing

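The number of intervals was 1460 when all 3 CLP libraries were required, 4409 when any CLP and any ILCP library sufficed, and 1274 with the higher-scoring 50% of peaks, and ranged from 1470 to 3246 when a library was left out. Leaving out CLP replicate 2 or 3 gave 1470 and 1475, where CLP replicate 1, without a peak in 1099 of the intervals, was needed. The share at starts was 25.2% with equal numbers of peaks, 25% with the higher-scoring 50%, 14.8% when peaks had to cover 50% of an interval, 21.6% with a window of 2.5 kb, and 15.9 to 18.1% with a library left out.

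Of the score differences, intervals higher in ILCP numbered 38 (8.82%, against 4.45% of all tested) and those higher in CLP 88 (20.4%, against 5.64%) with the weaker scores left out, where 431 were tested. They numbered 267 (18.3%, against 18.7% of all) and 404 (27.7%, against 15.5%) when the same 1460 were refitted without CLP replicate 1, an alternative chosen after the data were seen. With a library left out they ranged from 0 to 583 and from 0 to 543. The replicate block gave 150 and 243, so pairing by number did not move the counts by over 1.5 times. With the block, peak width differed by -208 bp and percentile by -5.09. With 2 pairs it could not be asked whether each library correlated best with its own number. Differences in width (-203 to -357 bp) and percentile (-4.42 to -7.01) kept their sign without each library.

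Searching whole intervals raised all 26 motif shares, the Runx share to 84.8%. Of the 52 other motif values, 48 stayed within the interval of the first. Read depth, and so the sensitivity of each peak list, is unknown.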
